A study of Mus musculus with 6 samples.

Results

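The major urinary protein (Mup) genes were followed in bulk liver RNA of mice on a high-fat diet. The set is 10 genes named in advance by symbol: Mup1, Mup3, Mup5, Mup7, Mup10, Mup11, Mup12, Mup17, Mup20 and Mup21. All 10 were found, with 1 row each, among 54600 rows of the deposited expression table. Of the 10, 9 passed the filter on low values (1 TPM or more in 3 or more of the 6 libraries), and Mup5 did not. TPM (transcripts scaled to a common total per library) is a share of a fixed total corrected for transcript length, so levels of different genes can be compared on it.

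The study asked how the loss of HIF-2α, an oxygen-regulated transcription factor encoded by Epas1, in hepatocytes affects the fatty liver of mice kept on this diet. It holds 6 liver libraries, all from mice fed the high-fat diet for 16 weeks: 3 labelled WT and 3 labelled hepatocyte-specific HIF-2α KO, numbered 1 to 3 in each group. The promoter that drives the deletion, and the strain, sex and age of the mice, are not given in the sources used here. There is no group on another diet, so every level below is a level under high-fat feeding. The labels do not say that the numbers stand for separate animals, and p-values measure the spread between these libraries.

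Mup proteins are small secreted lipocalins, barrel-shaped proteins that carry hydrophobic ligands. Mouse hepatocytes make them in very large amounts, release them into blood and lose them into urine, where they bind volatile pheromones and act as scent signals. Their liver transcription is known to depend on pulses of growth hormone acting through STAT5B and on androgen and glucocorticoid, and it is higher in males. Circulating MUP1 is also known as a metabolic regulator that falls in obese and diabetic mice. This is background and not a result of these libraries.

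The genes lie side by side on chromosome 4. GENCODE release M21, on GRCm38 (the build also called mm10, which the submitters' processing notes name), has 22 Mup genes and 27 Mup pseudogenes. The 22 genes span 2.19 Mb at chr4:59956804-62150863, and 21 of them are on the minus strand. All 10 described genes are on the minus strand. In order along the chromosome they are Mup7 at chr4:60066469-60070475, Mup1 at chr4:60498012-60501960, Mup10 at chr4:60578260-60582199, Mup11 at chr4:60658466-60662411, Mup12 at chr4:60737383-60741326, Mup17 at chr4:61591929-61595871, Mup5 at chr4:61831319-61835233, Mup20 at chr4:62050234-62054158, Mup3 at chr4:62083476-62087342 and Mup21 at chr4:62147932-62150863.

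A stretch of 60 coding bases, spliced from exons 1 and 2, shows how alike these copies are and why reads of some of them cannot be told apart. It was chosen as the gap-free stretch of that length with the most positions that vary among the 10 genes. It is printed 5′ to 3′ on the coding strand, from the GENCODE M21 transcripts, with capitals where a gene differs from Mup11.
Mup11: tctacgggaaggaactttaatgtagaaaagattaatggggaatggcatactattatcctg
Mup20: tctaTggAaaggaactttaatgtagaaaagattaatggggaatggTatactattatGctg
Mup5: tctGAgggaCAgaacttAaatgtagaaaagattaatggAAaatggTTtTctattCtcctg
Mup3: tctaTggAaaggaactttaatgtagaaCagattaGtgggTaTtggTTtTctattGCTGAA
Mup21: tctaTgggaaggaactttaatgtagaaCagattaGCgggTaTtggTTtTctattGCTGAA
The Mup11 line stands for 6 of the 10 genes, since Mup1, Mup7, Mup10, Mup12 and Mup17 hold the same 60 bases. Of all 22 Mup genes, 14 hold them. Mup20, the gene of the male pheromone darcin, differs from them at 4 of the 60 positions, Mup5 at 11, and Mup3 and Mup21 at 15 each. Over the whole coding sequence, Mup3 and Mup21 were less divergent than in this stretch, at 83.7% and 84.8% identity to Mup11.

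Over the whole coding sequence, Mup1, Mup7, Mup10, Mup11, Mup12 and Mup17 were 98.4% to 99.6% identical in their 15 pairs, with 2 to 9 base differences a pair. They are called the near-identical copies below. The other 30 pairs among the 10 genes were 82.4% to 94.8% identical. Of all 100-base windows of a gene's transcript, the share found in no other Mup transcript was 12.8% for Mup1, 12.9% for Mup7, 14.6% for Mup10, 16.5% for Mup11, 22.5% for Mup12 and 40.6% for Mup17. For Mup20 it was 61.2%. For Mup21 it was 95.5%, for Mup3 97.1% and for Mup5 98.7%. A value for Mup3, Mup5 or Mup21 therefore rests mostly on sequence of its own, and a value for a near-identical copy depends on how shared reads were assigned, and the sources used here do not give that step.

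Promoters are shown because steady genes (Mup10, Mup3) and variable ones (Mup11, Mup17, Mup21) could be set side by side. The RefSeq promoter table (GRCm38.p6, 250 bases before to 50 after each start site) matched 6 of the 10 genes. The 100 bases that end 3 bases after a TATATAA box are shown for 5 of them, 5′ to 3′ on the gene's own (minus) strand, with the box in capitals.
Mup10 (chr4:60582176-60582275): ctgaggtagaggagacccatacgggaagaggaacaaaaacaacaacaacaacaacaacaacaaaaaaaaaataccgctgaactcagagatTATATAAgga
Mup11 (chr4:60662388-60662487): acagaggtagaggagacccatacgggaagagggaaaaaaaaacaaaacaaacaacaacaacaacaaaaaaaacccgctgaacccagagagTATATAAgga
Mup17 (chr4:61595848-61595947): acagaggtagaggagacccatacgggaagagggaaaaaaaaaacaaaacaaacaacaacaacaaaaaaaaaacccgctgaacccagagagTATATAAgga
Mup3 (chr4:62087319-62087418): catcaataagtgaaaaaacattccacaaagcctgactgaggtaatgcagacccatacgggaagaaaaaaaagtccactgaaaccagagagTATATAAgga
Mup21 (chr4:62150840-62150939): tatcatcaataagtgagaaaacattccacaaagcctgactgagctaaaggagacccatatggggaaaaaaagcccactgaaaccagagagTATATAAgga
By the RefSeq start sites, the box began 30 bases before the start in Mup10, 25 in Mup17, 11 in Mup3, 8 in Mup21 and 2 in Mup11. By the same sites, the last 8 and 2 printed bases lie after the start in Mup11 and Mup21. GENCODE M21 starts these 5 genes elsewhere. The higher coordinate given for each gene above, its start on the minus strand, lies inside the printed stretch and before the box. The distances therefore hold for the RefSeq sites only. The letters TATATAA, searched on both strands, were in the windows of 5 of the 6 matched genes, with Mup7 the exception, and of 8 of 8 other matched Mup genes, against 3.24% of all 32851 windows. The STAT5-type motif TTCNNNGAA (read the same on both strands) was in 0 of the 6 and 0 of the 8 windows, against 8.30% of all windows, which says only that these letters are not within this short window. Both motifs were chosen after the promoter sequences had been seen.

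Before the results, the targeted gene was examined. Epas1 read 23.8, 26.0 and 21.01 TPM under the WT label (libraries 1, 2 and 3) and 26.6, 35.1 and 29.4 TPM under the KO label. No library labelled KO had a lower level, and the groups did not overlap, with the KO label on the higher side (log2 difference 0.34, SE 0.15, limma adjusted p = 0.993). A total over the gene does not show which exons remain, and genotype is given below as the label only. RNA of Ddx3y, a gene of the Y chromosome, was at 18.5 to 22.2 TPM in all 6 libraries, while Xist, which marks the inactive X chromosome, was at 0.005 TPM or less. Hepatocyte markers summed to 55337 to 63233 TPM under the WT label and 62095 to 78139 TPM under the KO label. The 8 lymphocyte markers summed to less than 4 TPM in each library. No gene of any cell type list passed the test, as for nearly all genes (0.00874% passed).

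The Mup genes were among the most abundant RNAs of these livers. Summed, the 10 genes made up 8.79%, 5.07% and 12.8% of all TPM in the libraries labelled WT 1, 2 and 3, and 5.45%, 5.59% and 12.1% in those labelled KO. Both libraries numbered 3 were high under either label, and the groups overlapped. The mean was 8.88% ± 3.86 (SD, n = 3) under WT and 7.71% ± 3.79 (SD, n = 3) under KO. The log2 ratio of the group means was -0.20, within the pooled SD of 0.66 on the log2 scale. Its sign rested on single libraries: it was 0.15 without library WT 3 and -0.69 without library KO 3. The sum depends less than any single copy on how reads were split between the 10 genes. With every Mup gene and pseudogene of the table included, the share was 19.2%, 11.8% and 23.8% under WT and 12.6%, 11.5% and 23.9% under KO. In bulk RNA, fewer hepatocytes and less RNA per hepatocyte cannot be told apart.

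Mup7 had the highest level of the 10 genes in 6 of 6 libraries. Its levels were 37608, 17323 and 54249 TPM under the WT label (libraries 1, 2 and 3) and 17526, 15946 and 57324 TPM under the KO label. The lowest and the highest library both carried the KO label, so the groups overlapped across their whole range. Among all genes of the table it ranked 1 in KO 3 and between 2 and 10 in the other libraries. Its log2 difference, KO minus WT on log2(TPM + 1), was -0.38 (SE 0.59, 95% interval -1.76 to 0.997, limma adjusted p = 0.993).

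Mup11, also a near-identical copy, was at 17107, 10405 and 25279 TPM under WT and 7964, 9954 and 18765 TPM under KO. Each KO-labelled library was below the WT-labelled library of the same number, yet KO 3 stood above WT 1 and WT 2. KO minus WT on the log2 scale came to -0.53 (SE 0.41, 95% interval -1.50 to 0.44, limma adjusted p = 0.993).

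Mup17 was at 5408, 2567 and 6485 TPM under WT and 3396, 1845 and 5712 TPM under KO. Here too the KO-labelled library had the lower value in each same-numbered pair, at 0.63, 0.72 and 0.88 times the WT-labelled value. The log2 difference was -0.44 (SE 0.48, 95% interval -1.56 to 0.68, limma adjusted p = 0.993). When the replicate number was a block, so that libraries of the same number were compared, the 95% interval was -0.80 to -0.09 and the unadjusted p was 0.023, but the limma adjusted p over all genes was 0.724.

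Mup1, the copy that gives its name to the circulating metabolic regulator, was at 1671, 724 and 5227 TPM under WT and 964, 715 and 2922 TPM under KO. Library WT 3 stood far above the other 5. The log2 difference was -0.55 (SE 0.77, 95% interval -2.35 to 1.25, limma adjusted p = 0.993), and it was 0.20 without WT 3. In the fit with the replicate block the unadjusted p was 0.030 and the limma adjusted p 0.724.

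Mup12 was at 479, 279 and 1605 TPM under WT and 368, 289 and 816 TPM under KO. Its closest relative in coding sequence was Mup1, with 2 base differences, and the 2 genes were highest in the same library, WT 3. On the log2 scale the labels differed by -0.43 (SE 0.65, 95% interval -1.96 to 1.09, limma adjusted p = 0.993), and it was 0.28 without WT 3.

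Mup10 was the steadiest of the near-identical copies. Its level was 155, 134 and 157 TPM under WT and 157, 126 and 140 TPM under KO, so the 6 libraries lay within 1.25-fold of each other. Its log2 difference was -0.08 (SE 0.14, 95% interval -0.40 to 0.24, limma adjusted p = 0.993).

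Mup20, the darcin gene, was at 10537, 6320 and 20359 TPM under WT and 10445, 10940 and 16151 TPM under KO. The KO-labelled values lay inside the range of the WT-labelled ones. The labels differed by 0.15 on the log2 scale (SE 0.42, 95% interval -0.83 to 1.12, limma adjusted p = 0.993). It turned to -0.26 without WT 2 and to -0.05 without KO 3.

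Mup3, whose transcript is nearly all its own, was at 14665, 12715 and 13722 TPM under WT and 13474, 15554 and 18121 TPM under KO. The 6 libraries lay within 1.43-fold. Libraries KO 2 and KO 3 stood above all libraries labelled WT, and KO 1 lay among them. Between the labels the log2 difference was 0.19 (SE 0.18, 95% interval -0.24 to 0.62, limma adjusted p = 0.993).

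Mup21 was at 242, 194 and 744 TPM under WT and 210, 486 and 946 TPM under KO. Both libraries numbered 3 were above the other 4. The log2 difference was 0.49 (SE 0.65, 95% interval -1.03 to 2.004, limma adjusted p = 0.993), and it was -0.03 without KO 3.

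Mup5, best known from glands rather than liver, was near the lower end of what the table holds. It was at 0.634, 0.072 and 1.07 TPM under WT and 0.175, 0.172 and 1.08 TPM under KO. Only the libraries numbered 3 reached 1 TPM, so the gene was not tested with the others. Without the filter its log2 difference was -0.11 (SE 0.33, limma adjusted p = 0.957).

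**Figure D1:**
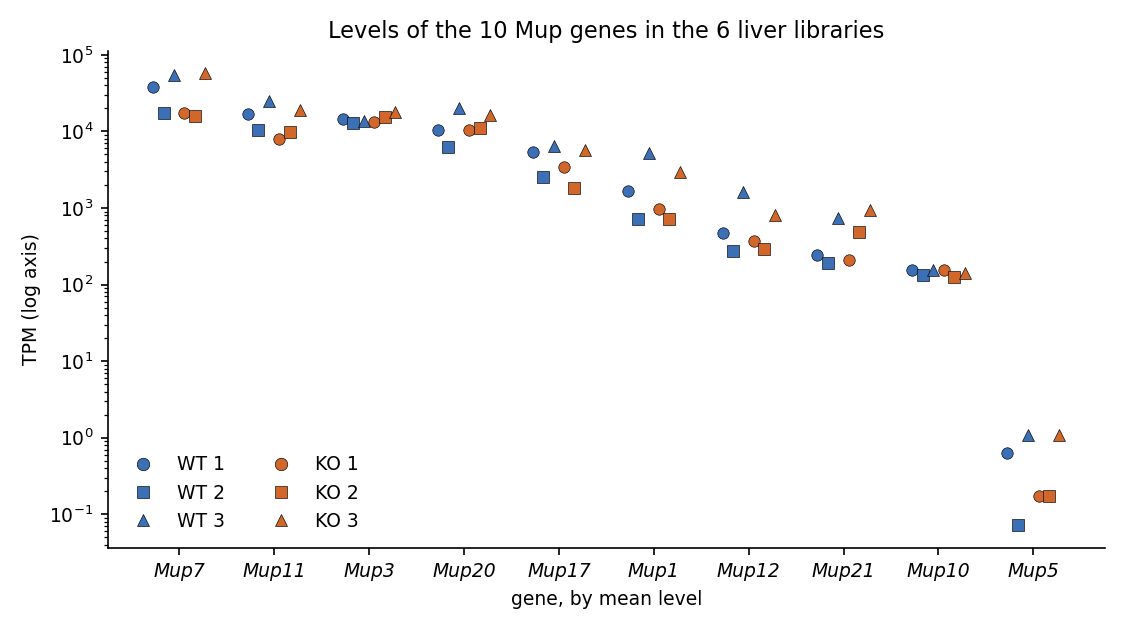
TPM on a log axis for each of the 10 Mup genes, ordered by mean level, with 1 point per library (blue, labelled WT; orange, labelled KO; circle, square and triangle, numbers 1, 2 and 3). The triangles lie at the top for most genes, the colours are mixed, and Mup3 and Mup10 form tight groups of points.

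The order of the levels was stable across libraries. Mup7 was the first of the 10 in each library, Mup17 the fifth, Mup1 the sixth, Mup10 the ninth and Mup5 the tenth. Mup11, Mup3 and Mup20 exchanged places 2 to 4: Mup11 was above Mup3 in 3 of 6 libraries, and Mup3 above Mup20 in 5 of 6. Mup12 was above Mup21 in 4 of 6. Over libraries, the ranges of neighbours in this order overlapped except for Mup21 above Mup10 and Mup10 above Mup5. Mup7 made up 28.5% to 47.4% of the summed 10 genes, and Mup3 10.7% to 27.8%, with its lowest share in WT 3 and its highest in KO 2. Among all 22 Mup genes, Mup22 exchanged the first place with Mup7, at 45478 TPM in WT 1 and 31711 TPM in KO 2. No 100-base window of the Mup22 or Mup19 transcripts was unique to them, so their split against other copies is uncertain.

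None of the 9 tested genes passed the test between the labels. By limma, 0 of 9 had an adjusted p under 0.05, against 0.00874% of all 11440 genes tested. At an unadjusted p under 0.05 there were also 0 of 9, against 3.15% of all genes, and 0 of 9 had groups that did not overlap, against 9.08%. With the replicate number as a block, 0 of 9 passed (0% of all genes), and 2 of 9, Mup1 and Mup17, had an unadjusted p under 0.05, against 6.18%. With the block and median-ratio scaling together, added after the data were seen, 4 of 9 had one (Mup1, Mup11, Mup12 and Mup17, with a smallest p of 0.0084), against 4.41%, and 0 passed after limma's adjustment. The log2 difference was below 0 for 6 genes and above 0 for Mup3, Mup20 and Mup21, with a median of -0.38 against 0.09 over all genes. Above 0 were 33.3% of these 9 and 74.5% of all genes. All 6 that were below 0 were the near-identical copies, which share reads and so are not separate measurements. The intervals were wide: that of Mup1 reached from -2.35 to 1.25, and only those of Mup3 and Mup10 stayed within 1 log2 unit on either side of 0. Of the 11 other Mup genes tested, 0 passed (0.00874% of all genes). All 11 had a difference below 0, with a median of -0.36, so 0% were above 0, against 74.5% of all genes. With the block, 4 of these 11 had an unadjusted p under 0.05, against 6.18%. All but Mup4 were 99.3% to 99.8% identical in coding sequence to their closest Mup gene. They too share reads, so these counts are not of separate measurements.

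**Figure D2:**
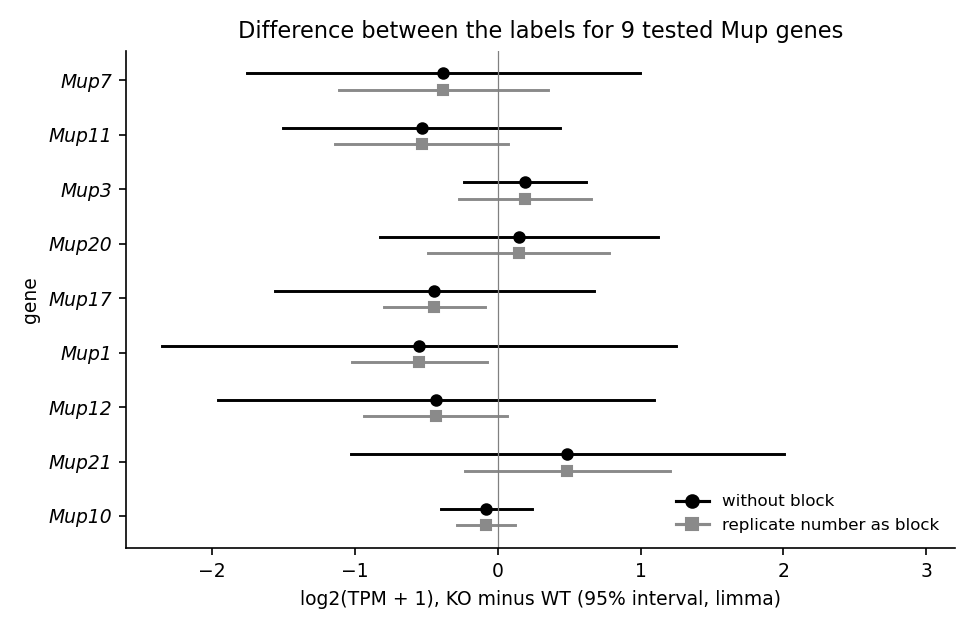
Log2 difference, KO minus WT on log2(TPM + 1), for the 9 tested Mup genes, with 95% limma intervals without a block (black) and with the replicate number as block (grey). Each black interval crosses 0, the grey ones of Mup17 and Mup1 do not, and those of Mup3 and Mup10 are short.

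Libraries of the same label differed widely. From the lowest to the highest, the range was 7.22-fold under WT and 4.09-fold under KO for Mup1, 5.76-fold and 2.83-fold for Mup12, and 3.84-fold and 4.51-fold for Mup21. For Mup7 it was 3.13-fold under WT and 3.60-fold under KO, for Mup17 2.53-fold and 3.10-fold, for Mup11 2.43-fold and 2.36-fold, and for Mup20 3.22-fold and 1.55-fold. Regardless of the label, the highest library exceeded the lowest of the 6 by 7.31-fold for Mup1, 5.76-fold for Mup12, 4.88-fold for Mup21, 3.60-fold for Mup7, 3.51-fold for Mup17, 3.22-fold for Mup20 and 3.17-fold for Mup11. The median of this ratio was 1.47 over the 7070 genes with a mean of at least 5 TPM, and 95.8% or more of those genes had a smaller ratio than each of these 7. Mup3 and Mup10 did not show it: 43.2% and 12.9% of the genes had a smaller ratio. Mup5 reached 15.0-fold at very low levels. Set against Mup3 in the same library, which removes any factor common to a library, Mup7 still ranged from 1.03 to 3.95 times Mup3, and Mup1 from 0.046 to 0.381 times.

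The same libraries were high for nearly all the variable genes. Both libraries numbered 3 were above both numbered 2 in 9 of the 10 genes, with Mup3 the exception, and in 11 of 11 other Mup genes with a mean of at least 1 TPM. Over all tested genes this held for 9.75%. Both were above all the other 4 in 8 of the 10 genes, with Mup3 and Mup10 the exceptions, against 2.81% of all genes. This order was noticed in the values and is given without a test. Across all genes, libraries with the same number departed from their groups' means in a positively correlated way (0.157, 0.408 and 0.381 for numbers 1, 2 and 3). With the Mup rows left out, the correlations were 0.156, 0.401 and 0.368. Those rows are few among all tested genes, and TPM was not rescaled without them. How far the Mup share of TPM shaped these correlations was therefore not tested. The sources used here do not say what the numbers stand for.

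**Figure D3:**
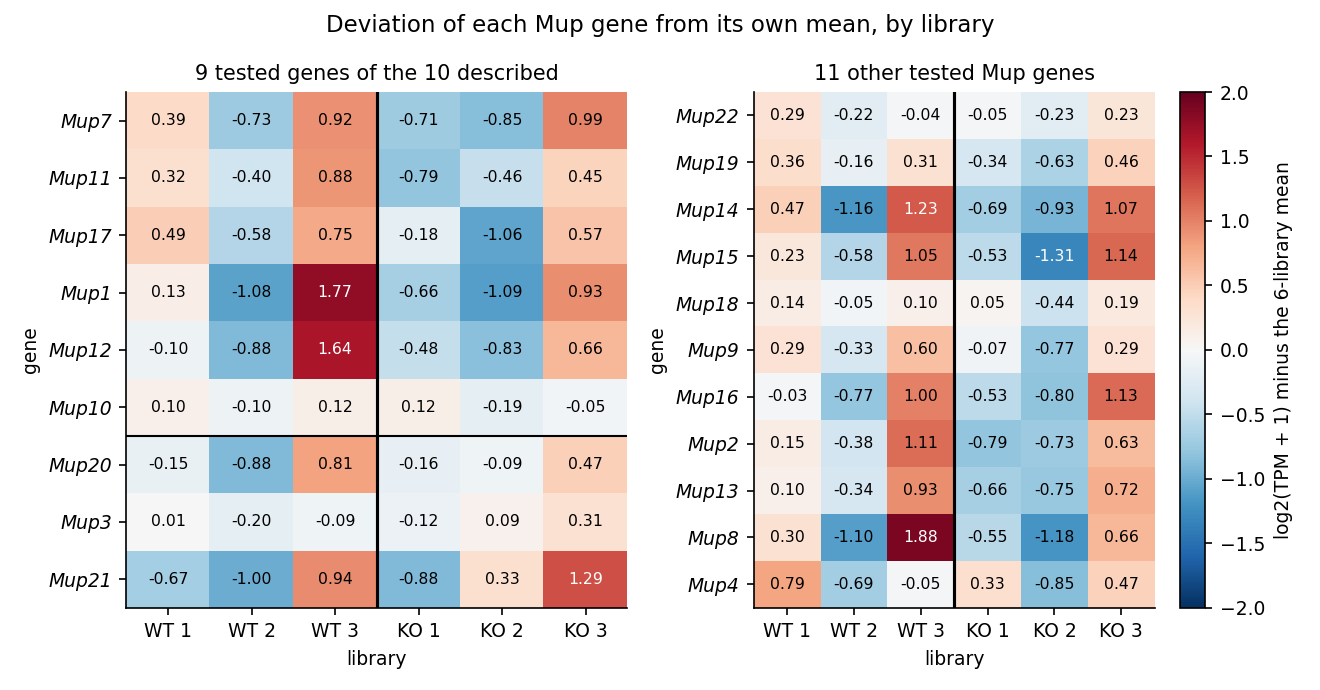
Heat map of log2(TPM + 1) minus each gene's 6-library mean, with libraries in columns and genes in rows, for the 9 tested genes (left; near-identical copies above the line) and 11 other Mup genes (right). The columns WT 3 and KO 3 are red in most rows, up to 1.77 in the left panel for Mup1 in WT 3, and the rows of Mup3 and Mup10 are pale.

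Sequence likeness did not separate variable from steady genes. Among genes with over 95% of their own 100-base windows, Mup3 varied 1.43-fold and Mup21 4.88-fold. Mup5 varied 15.0-fold, but at only 0.072 to 1.08 TPM and below the filter. Among the near-identical copies, Mup10 varied 1.25-fold and Mup1 7.31-fold. The part of shared reads in the levels of single copies, such as the steady Mup10, was not tested.

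**Figure D4:**
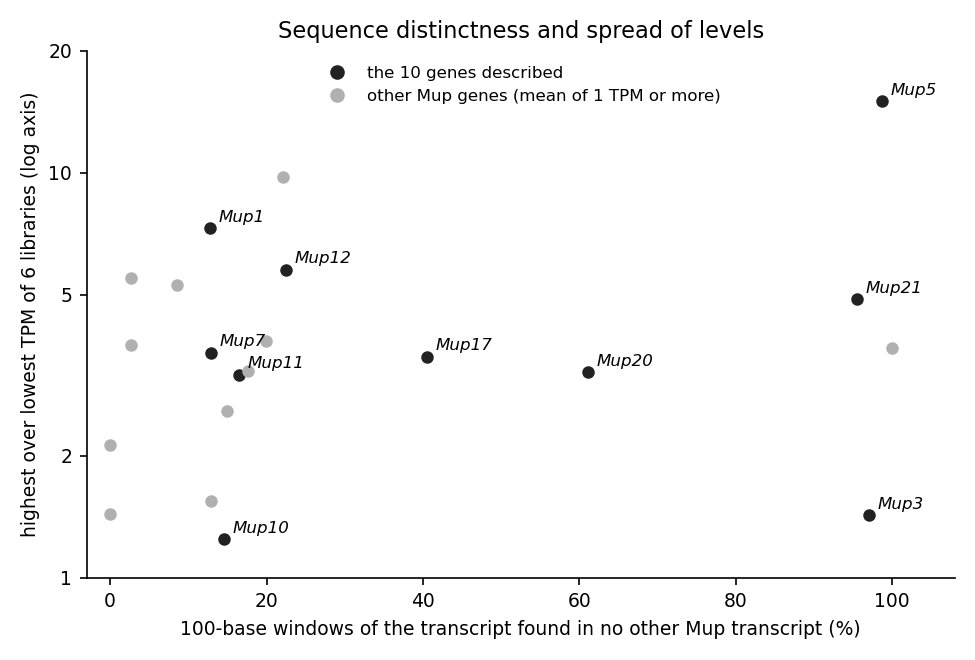
Highest over lowest TPM of the 6 libraries (log axis) against the percentage of a transcript's 100-base windows found in no other Mup transcript, 1 point per gene (black, the 10 described; grey, other Mup genes with a mean of at least 1 TPM). Steady and variable genes stand at both ends of the horizontal axis, from Mup10 and Mup1 on the left to Mup3 and Mup21 on the right. Mup5, the highest point, was at only 0.072 to 1.08 TPM.

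Genes next to the cluster varied less than the 7 variable Mup genes and, in 5 of 6 cases, more than Mup3. The 3 nearest tested genes on either side, E130308A19Rik, Inip and Snx30 before it and Slc31a2, Fkbp15 and Slc31a1 after it, varied by 1.12-fold to 1.90-fold over the 6 libraries. The 5 that varied more than Mup3 were low, with means of 1.21 to 6.60 TPM, against 14709 TPM for Mup3. Slc31a1, a copper importer, varied least, at 67.3, 67.3 and 61.5 TPM under WT and 67.0, 68.8 and 62.2 TPM under KO. None of the 6 passed the test (0.00874% of all genes did).

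Other genes with male-biased expression in mouse liver varied between libraries in the order of the Mup genes. In a list of 23 such genes, 22 were tested. In 20 of them (90.9%) both libraries numbered 3 were above both numbered 2, against 9.75% of all genes. The order was first noticed in these values and the list was chosen with earlier results known, so this is a description without a test. A high Mup share of TPM in the libraries numbered 3 also lowers other values there, and with them the share over all genes. Elovl3, a fatty acid elongase, was at 98.5, 86.4 and 173 TPM under WT and 56.9, 23.0 and 249 TPM under KO. Sult5a1, a sulfotransferase, was at 15.6, 5.05 and 18.5 TPM under WT and 6.62, 5.31 and 10.2 TPM under KO. Both genes were highest in the library numbered 3 of each label, as Mup7 was. Their log2 differences were below 0, at -0.71 (SE 0.77) and -0.62 (SE 0.44). Those of Cyp4a12b (0.87, SE 0.58) and Serpina12 (0.56, SE 0.40), on the same list, were above 0. The limma adjusted p was 0.993 for each. Between the labels, 0 of 22 passed (0.00874% of all genes did), with 14 differences above 0 (63.6%, against 74.5% of all genes), 8 below and a median of 0.08 against 0.09 over all genes. With median-ratio scaling the list's median was -0.03.

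Female-biased genes took the other direction. Of 23 listed, 9 were tested and 4 were at 0 in every library. In 7 of the 9 (77.8%) both libraries numbered 3 were below both numbered 2, against 37.1% of all genes. This list was chosen in the same way, and the high Mup share in the libraries numbered 3 lowers other values there. Cyp17a1, a steroid hydroxylase, was at 7.64, 52.7 and 14.5 TPM under WT and 7.16, 22.8 and 5.46 TPM under KO. Its library numbered 2 was the highest in each label, where the summed Mup level was low. Cyp2a4, a cytochrome P450 higher in female liver, was at 0.041, 1.16 and 0.035 TPM under WT and 1.98, 1.58 and 0.043 TPM under KO, so it was near 0 in both libraries numbered 3 and in WT 1. Cyp2c40, another cytochrome P450, went the other way, at 22.8, 23.3 and 31.4 TPM under WT and 19.8, 28.7 and 41.0 TPM under KO. Between the labels, 0 of the 9 tested passed (0.00874% of all genes did), and 7 differences were above 0 (77.8%, against 74.5% of all genes).

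**Figure D5:**
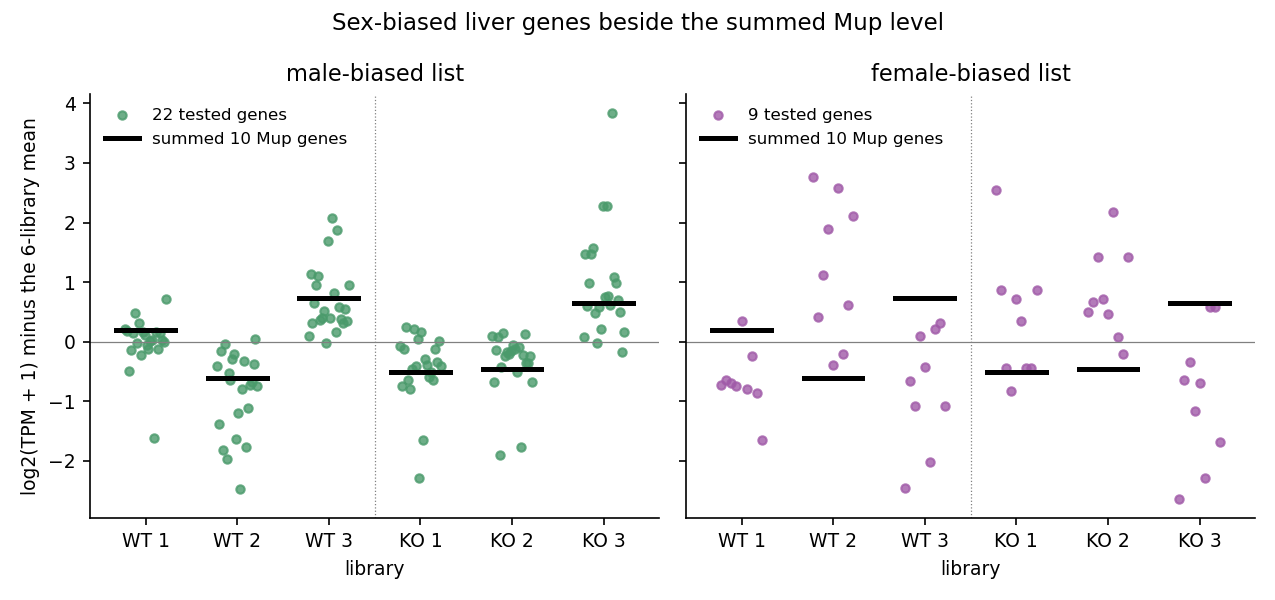
Log2(TPM + 1) minus the 6-library mean for 22 tested genes of the male-biased list (left) and 9 of the female-biased list (right), 1 point per gene and library, with black bars for the summed 10 Mup genes on the same scale. The male-biased points are high with the bar in WT 3 and KO 3, and most female-biased points are low there.

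The growth hormone pathway was examined from receptor to feedback inhibitors. Of 12 listed genes, 11 were tested and 0 passed (0.00874% of all genes did), with 9 differences above 0 (81.8%, against 74.5% of all genes), 2 below and a median of 0.23 against 0.09. With median-ratio scaling the median was 0.13. Stat5b, the transcription factor that carries the signal of hormone pulses in male liver, was at 12.3, 10.6 and 9.75 TPM under WT and 12.1, 13.2 and 14.2 TPM under KO. Socs2, a feedback inhibitor that growth hormone induces, was at 4.66, 5.84 and 3.38 TPM under WT and 1.99, 13.4 and 55.7 TPM under KO. Cish, a second inhibitor of this family, was at 2.89, 3.62 and 3.11 TPM under WT and 2.83, 10.3 and 24.7 TPM under KO. Both inhibitors were far higher in KO 3 than in any other library, whereas WT 3, with a similar Mup level, was among the low ones. Their log2 differences were 1.28 (SE 0.92) and 1.30 (SE 0.60), with a limma adjusted p of 0.993 for both.

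Liver transcription factors, of which 19 of 21 were tested, had 0 that passed (0.00874% of all genes did), with 16 differences above 0 (84.2%, against 74.5% of all genes), 3 below and a median of 0.14 against 0.09. With median-ratio scaling the median was 0.038. Foxa2, a pioneer factor of hepatocytes, was at 7.91, 15.6 and 11.7 TPM under WT and 10.9, 20.8 and 28.9 TPM under KO. It did not follow the Mup order, since WT 2 was the highest of the WT-labelled libraries.

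Other lipocalins and other abundant secreted proteins of the liver served to show whether secreted products moved as a whole. Of 11 listed lipocalins outside the Mup family, 9 were tested and 0 passed (0.00874% of all genes did), with 7 above 0 (77.8%, against 74.5% of all genes) and a median of 0.11 against 0.09. With median-ratio scaling the list's median was 0.00039. In 1 of the 9 both libraries numbered 3 were above both numbered 2. Ambp, the precursor of the plasma lipocalin alpha-1-microglobulin, was at 1747, 1605 and 1445 TPM under WT and 1675, 1791 and 1871 TPM under KO. Its 1.30-fold range was narrow beside that of Mup7. Lcn2 and Orm2, at means of 13.1 and 12.2 TPM, varied more than Mup7, by 5.56-fold and 5.70-fold. Orm3 and Obp2a did too, at means of only 2.48 and 1.62 TPM. Lcn2, Orm2 and Orm3 were highest in WT 1 and lowest in WT 3, unlike Mup7. The tested lipocalins not named here varied by 1.16-fold to 1.65-fold. Of 16 abundant secreted proteins, all tested, 0 passed (0.00874% of all genes did), with 15 above 0 (93.8%, against 74.5% of all genes) and a median of 0.18 against 0.09. With median-ratio scaling the median was 0.076. Apoa1, the main protein of high-density lipoprotein, was at 6935, 6462 and 7113 TPM under WT and 7009, 9632 and 9821 TPM under KO.

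Summed macrophage and endothelial markers were lowest in the libraries where, within a label, the summed Mup level was highest. The summed macrophage list was at 352, 317 and 250 TPM under WT and 334, 332 and 319 TPM under KO. The endothelial list was at 137, 147 and 131 TPM under WT and 141, 164 and 132 TPM under KO. Both lists were lowest in the library numbered 3 of each label, though the macrophage list hardly varied under KO. The stellate and fibroblast list was at 153, 151 and 131 TPM under WT and 159, 179 and 166 TPM under KO, and 4 of its 9 tested genes had groups that did not overlap (44.4%, against 9.08% of all genes). It was lowest in WT 3 but not in KO 3. Since TPM is a share of a fixed total, a larger Mup share also lowers all other values of that library. The part of cell makeup in the Mup levels was not tested.

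The genes whose levels were most like the summed Mup level were ranked over the 6 libraries, among 6750 protein-coding genes outside the family with a mean of at least 5 TPM. Pearson's r between log2(TPM + 1) and the log2 of the sum was highest for Susd4 (0.989), Slc22a28 (0.979), Cyp7b1 (0.978), Gstp1 (0.971) and Sec61b (0.960). Susd4, Cyp7b1 and Gstp1 are on the male-biased list. Cyp7b1, an oxysterol hydroxylase of bile acid synthesis, was at 86.0, 28.5 and 167 TPM under WT and 44.8, 46.7 and 211 TPM under KO, a 7.39-fold range close to that of Mup1. Gstp1, a glutathione transferase, was at 1981, 1137 and 3485 TPM under WT and 1619, 1384 and 3340 TPM under KO. The lowest r belonged to Uqcrfs1 (-0.998), Dpp8 (-0.996), Gsta4 (-0.991), Pgrmc2 (-0.990) and Tmem184b (-0.989). Gsta4, a glutathione transferase of another class, was at 42.9, 68.5 and 34.9 TPM under WT and 61.5, 59.8 and 32.5 TPM under KO. These r are descriptions picked from many genes over 6 points that share libraries and a fixed total. Without WT 3 and KO 3, r was 0.940 for Cyp7b1, 0.856 for Gstp1 and -0.992 for Gsta4.

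Within the family, the r of each gene with the sum of the other 9 was 0.998 for Mup5, 0.965 for Mup1, 0.951 for Mup7, 0.930 for Mup12, 0.926 for Mup11, 0.878 for Mup17, 0.817 for Mup20 and 0.764 for Mup21. It was 0.461 for Mup3 and 0.412 for Mup10. Without WT 3 and KO 3 it was 0.315 for Mup20 and -0.016 for Mup21, so for these 2 genes the likeness rested on those libraries, while for Mup7 it was 0.868 and for Mup1 0.936. Mup5, with the highest r, was at only 0.072 to 1.08 TPM and did not pass the filter. The near-identical copies share reads, so their r are not those of separate measurements.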

How the data were processed

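Per the labels' protocols, total RNA of liver was extracted with Trizol and made into libraries with a kit of NEB. The authors deposited 1 table of TPM per gene for the 6 libraries, with no counts, so the depth per library is unknown and no counting interval can be given. The submitters' processing notes name fastp, HISAT2, featureCounts, DESeq2, limma and mm10, without versions or settings. The handling of strand and of reads shared by Mup copies is a step that the sources used here do not give. Symbols came from the Ensembl IDs through the GENCODE M21 annotation (51492 of 54323 IDs matched).

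TPM was taken to log2(TPM + 1), a gene was kept if 3 or more of the 6 libraries reached 1 TPM (11440 genes), and limma 3.58.1 in R 4.3.3 (empirical Bayes with a variance trend, two-sided) compared KO with WT, with Benjamini-Hochberg adjustment over all genes and a threshold of 0.05. The script was tested on simulated data first. Fold changes of low genes are understated by the pseudocount of 1. Same-numbered libraries deviated together (r = 0.157, 0.408 and 0.381 across genes, against -0.369 to 0.026 for other pairs). Deviations from a group mean sum to 0, so r above 0 in same-numbered pairs pushes the other pairs below 0. The main fit held the label only, because a pairing by number comes from the data and not from a stated design. A fit with the number as a block was an alternative. Libraries' ranks of all tested genes correlated at 0.945 to 0.978.

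The 10 genes, the gene lists and the tests were chosen with earlier results of these data known. Genes named beyond the 10 were drawn from other Mup genes averaging 1 TPM or more and from the 5 tested members of each list with the smallest p. Not every gene that qualified is named, and of most lists only some of those 5 are. Also named are Epas1, 3 neighbours on each side of the cluster, and the 5 genes most and 5 least like the summed Mup level. Ddx3y and Xist are from a list of sex chromosome genes. Windows of 100 bases from the 22 Mup genes were compared as exact matches with the transcripts of all other Mup genes and Mup pseudogenes. Coding sequences were aligned with Biopython 1.88. In all, 16 alternatives were planned and 4 added after the data were seen.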

Additional observations from a re-analysis of the deposited data

How the results depend on the processing

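The count of Mup genes past the threshold was 0 under all 20 alternatives. Over all genes, limma called 1 gene. It called 0 with a pseudocount of 5, with no filter, with a filter of 5 TPM and with quantile normalization, and 0 to 2 when 1 library was left out. With the replicate block it called 0 genes, and 0 with the block and median-ratio scaling together. Leaving out both libraries of a number, an alternative chosen after seeing the data like the previous one, gave 0, 2 and 0 genes for numbers 1, 2 and 3. The replicate block changed no call of a Mup gene, with the smallest adjusted p at 0.724. Signs turned for Mup1 (0.20) and Mup12 (0.28) without WT 3, for Mup20 without WT 2 (-0.26), without KO 3 (-0.05) and without both libraries numbered 2 (-0.17), and for Mup21 without KO 3 (-0.034). When 1 library was left out, the log2 difference ranged from -1.23 to 0.20 for Mup1, -0.98 to 0.28 for Mup12, -0.26 to 0.59 for Mup20 and -0.034 to 1.08 for Mup21. Mup3, Mup7, Mup10, Mup11 and Mup17 kept their sign under the alternatives run, scalings included, but not their size: with 1 library left out they ranged from 0.082 to 0.30, -0.97 to -0.018, -0.16 to -0.0018, -0.89 to -0.22 and -0.85 to -0.025, and median-ratio scaling brought Mup3 from 0.19 to 0.082. Other scalings moved the direction of the unadjusted calls over all genes, from 316 higher and 44 lower to 158 and 143 with median-ratio scaling, and moved the median of all genes from 0.095 to 0.0021. The log2 ratio of the summed Mup levels ranged from -0.69 to 0.15, within 1 SD of its value (Mup5 was not in the sum under quantile normalization). With 3 libraries a label and the spread seen here, differences within the printed intervals could not be resolved.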

Other observations

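Among the RNAs inside the cluster that are no Mup genes, the noncoding Gm13773 stood out, and it was picked after its values were seen. It lies at chr4:60502841-60521169 on the plus strand, beside the start of Mup1 on the opposite strand. Its span also holds the pseudogene Mup-ps6, on the same strand, which averaged 14.5 TPM against 1.42 TPM for Gm13773. The split of reads between them was not tested. Gm13773 was at 2.44, 1.06 and 3.30 TPM under WT and 0.729, 0.751 and 0.217 TPM under KO, so the groups did not overlap (9.08% of all genes had groups that did not). The log2 difference was -1.02 (SE 0.30), with a limma adjusted p of 0.993 and an unadjusted p of 0.0105. In KO 3, where Mup1 was the highest of the KO-labelled libraries, Gm13773 was at its lowest, and in WT 3 both were at their highest.

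Of the 26 Mup pseudogenes in the table, 8 had a mean of at least 1 TPM. In 4 of these 8 both libraries numbered 3 were above both numbered 2, against 11 of 11 other Mup genes. Mup-ps13, a pseudogene of the cluster, was at 28.0, 20.4 and 30.0 TPM under WT and 23.4, 22.3 and 29.9 TPM under KO. Mup-ps12 was at 18.3, 16.7 and 14.3 TPM under WT and 20.4, 11.6 and 14.0 TPM under KO, with no high value in the libraries numbered 3. The assignment of reads between pseudogenes and genes was not tested.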
